A study of Mus musculus with 4 samples.

Results

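The 9 genes described here encode ubiquitin ligases and adaptors of ubiquitin ligases, listed together as restraints on T cell activation. Cbl, Cblb, Itch, Nedd4, Nedd4l, Rnf128 and Peli1 are the ligases, and Ndfip1 and Ndfip2 the adaptors. That heading need not hold for each gene, and their function was not tested. The 9 genes were taken by name from a list and matched by gene symbol, with no cut on their values. The list was chosen with earlier results of these data known. All 9 were found among the 50600 genes counted in each library. The material was primary T cells of the mouse substrain C57BL/6NJ, sequenced as 1 group of 4 biological replicates. The labels give no treatment, genotype or control group, record the sex as not collected and the age as unknown, and carry the same donor identifier on all 4 replicates. The file headers hold the further words Th0 and activated and a time of 48 hours, and the linked differentiation protocol is named for CD4+ T cells. Th0 commonly denotes helper T cells stimulated without polarising cytokines. The questions such a design allows are whether each gene was expressed, how the genes stood to each other within a library, and how far the replicates differed. All p-values reflect only the spread over these samples, which may be technical.

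A ubiquitin ligase (E3) brings a ubiquitin-conjugating enzyme (E2) to a chosen protein, and the attached ubiquitin can send that protein to the proteasome or lysosome or alter its signalling. CBL proteins are RING ligases that bind phosphorylated signalling proteins, whereas NEDD4 family ligases carry a catalytic HECT domain and WW domains that recognise PY motifs in substrates and adaptors. In T cells several of these ligases are known for keeping a cell stimulated without costimulation unresponsive, a state called anergy, and mice lacking Cblb, Itch, Ndfip1 or Peli1 develop immune activation.

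Total gene counts for replicates 1 to 4 were 56904311, 45110199, 127755788 and 53379135. A count of 0 allowed a level of up to 0.0527, 0.0665, 0.0235 and 0.0562 CPM (the count scaled to the library's total), where 3 counts was taken as the limit, a bound that covers counting error only. Every pair of libraries differed by more than counting noise (chi-square over its degrees of freedom 8.3 to 26.3), a check for repeated files that says nothing of independence. The labels name each a biological replicate, and each entered as 1 sample. All 8 T cell markers lay above 1 CPM, with a summed level of 3522 to 3589 CPM, and Cd4 stood at 792 TPM ± 15 (SD, n = 4). TPM is the count corrected for exon length and scaled to a fixed sum per library. The class I coreceptor gene Cd8a was below 1 CPM at 0.279 CPM, while Cd8b1 stood at 9.62 CPM. Of 30 markers of 6 other cell types, 4 were above 1 CPM, and these were named after their values were seen: Adgre1 at 2.6, Eomes at 2.34, Epcam at 1.47 and Pecam1 at 26.9 CPM. A further 16 were below 1 CPM, and 8, among them Lyz2, Itgax, Hbb-bs and Pf4, had no count in any library. The other 2, the platelet marker Itga2b at 1.22 CPM and the B cell marker Cd79b at 0.846 CPM, passed neither test. The part of these cell types in the levels below was not tested. In bulk RNA, fewer cells of a type and less RNA per cell cannot be told apart.

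Of the 9 genes, 8 were expressed above 1 CPM and none was called below it, and Rnf128 passed neither test. Over all 23365 genes with a count in any library, 47.4% were called above 1 CPM and 48.3% below it (limma, one-sided tests on log2(CPM + 0.1), Benjamini-Hochberg adjusted p below 0.05). The median of the 9 was 84.9 CPM, against 0.902 CPM over all genes tested, and in TPM the medians were 31.2 and 1.8. The order by mean TPM was Ndfip1, Cblb, Cbl, Peli1, Itch, Ndfip2, Nedd4l, Nedd4 and Rnf128. No neighbours in that order overlapped in TPM range over the 4 libraries, and Ndfip1 stood 944-fold above Rnf128 in mean TPM. That fold was 254 without length correction and 139 with the exon lengths of a later annotation. The order of some neighbours also depends on the exon length that TPM divides by, as given with each gene.

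**Figure D1:**
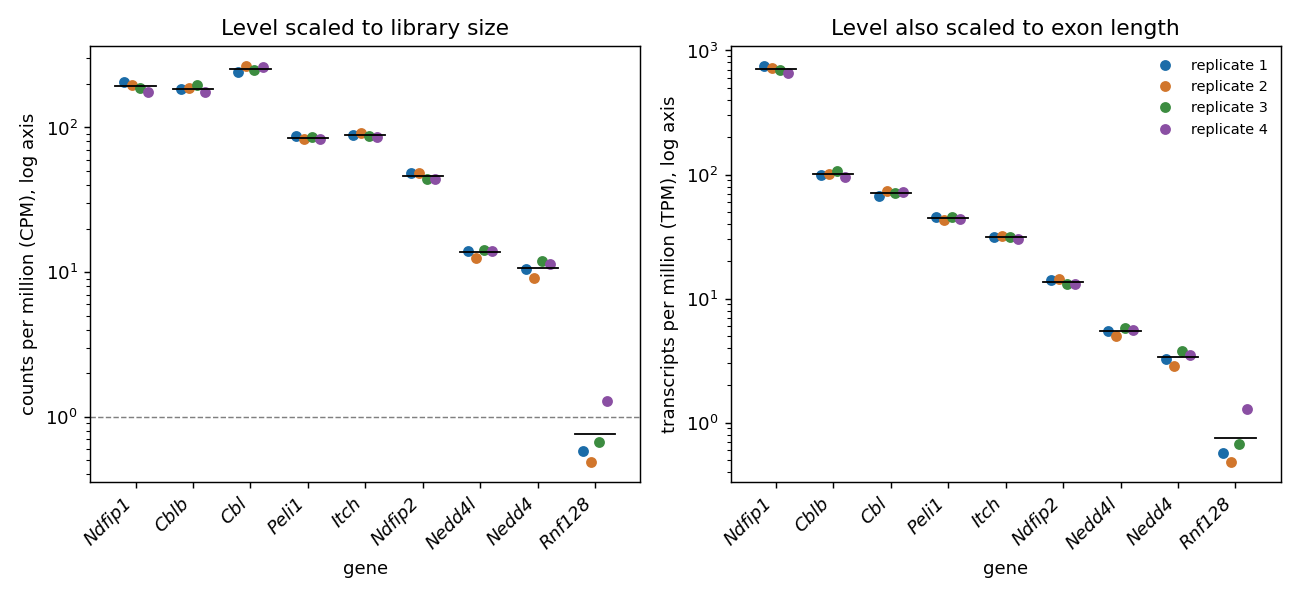
Level of each of the 9 genes on log axes, in CPM (left, with a dashed line at the 1 CPM threshold) and in TPM (right), 1 coloured point per replicate and a line at the mean of 4. In TPM the points of neighbouring genes do not overlap; in CPM Ndfip1 and Cblb, and Peli1 and Itch, lie side by side, and only replicate 4 of Rnf128, at 1.29 CPM, is above the dashed line among that gene's points.

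Cblb encodes a RING ligase that raises the requirement for CD28 costimulation, and Cbl its paralog, which acts on activated receptors and their tyrosine kinases. Cblb (ENSMUSG00000022637.10, mm10 chromosome 16, 52031549 to 52208047, plus strand, 18 merged exons) read 98.6, 101, 107 and 96 TPM in replicates 1 to 4, a mean of 101 ± 4.68 (SD, n = 4). Replicate 3 was highest and replicate 4 lowest, within a narrow range. Cbl (ENSMUSG00000034342.9, chromosome 9, 44142976 to 44234049, minus strand, 20 merged exons) read 67.2, 74, 70.7 and 72.1 TPM, a mean of 71 ± 2.91. Its highest library was replicate 2 and its lowest replicate 1, so the pair did not rise and fall together. In CPM, which does not correct for length, Cblb averaged 185 ± 7.33 (adjusted p = 5.45e-18 against 1 CPM, limma) and Cbl 255 ± 10.4 (adjusted p = 4.44e-18).

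The ranges of the pair in TPM did not overlap, and Cbl was 1.42-fold lower than Cblb, a log2 ratio of -0.50 ± 0.09 with the same sign in 4 of 4 libraries (limma on log2(TPM + 0.1), adjusted p = 1.92e-05). That direction rests on the length correction. Without it the log2 ratio of Cbl over Cblb was 0.46 (adjusted p = 5.5e-06), and with exon lengths of a later annotation it was 0.22 (adjusted p = 0.00145). The exon length of Cblb was 6323 bases in the annotation the authors counted with (GENCODE M13) and 10475 in the later one (GENCODE M21), while that of Cbl was 12345 in both. Reads in the bases that the later annotation adds to Cblb are not in the deposited counts, so its divisor understates the level of Cblb. Cblb gave 58.6% ± 1.47 of the summed TPM of the pair, 42.1% ± 1.47 of their summed CPM and 46.1% ± 1.5 with the later lengths. Cbl shares stretches of at least 95% identity, up to 280 bases long, with 17 other annotated genes, so some of its reads are uncertain. Each stretch covers at least 50% of the shorter of the matched transcripts. No such copy was found for Cblb.

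Promoter sequence is shown for Cblb and Cbl, the ligases highest in TPM, and for Rnf128, the lowest, because NFAT acting without AP-1 is known to drive anergy genes. Each line gives the 250 bases before a RefSeq transcription start (build GRCm38.p6), 5′ to 3′ on the gene's strand. Capitals mark the NFAT core GGAAA or its reverse complement TTTCC. The windows lie at chr16:52031299-52031548 (plus strand) for Cblb, chr9:44234047-44234296 (minus strand) for Cbl and chrX:139610370-139610619 (plus strand) for Rnf128.
Cblb: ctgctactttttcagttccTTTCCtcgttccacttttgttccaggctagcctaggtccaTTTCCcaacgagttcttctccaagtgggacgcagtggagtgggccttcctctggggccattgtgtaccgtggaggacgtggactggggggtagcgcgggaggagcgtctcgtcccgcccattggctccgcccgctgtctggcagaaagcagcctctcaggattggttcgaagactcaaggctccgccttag
Cbl: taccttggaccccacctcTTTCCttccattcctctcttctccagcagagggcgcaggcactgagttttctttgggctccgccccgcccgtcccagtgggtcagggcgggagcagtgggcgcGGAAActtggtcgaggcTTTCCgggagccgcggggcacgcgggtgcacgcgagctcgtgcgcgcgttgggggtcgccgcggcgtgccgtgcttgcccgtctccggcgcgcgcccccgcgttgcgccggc
Rnf128: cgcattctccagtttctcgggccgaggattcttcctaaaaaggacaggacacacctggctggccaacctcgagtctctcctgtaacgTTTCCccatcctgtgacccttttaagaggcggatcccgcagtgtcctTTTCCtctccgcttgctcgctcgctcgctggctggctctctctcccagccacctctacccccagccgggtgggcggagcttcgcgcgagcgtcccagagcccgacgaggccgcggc

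RefSeq promoter windows of 300 bases, from 250 before to 50 after a start, were matched for 6 of the 9 genes, with 7 starts among them. The NFAT core occurred 2 times in Cblb, 3 times in Cbl, 2 times in Rnf128 and 2 times in Ndfip2, and 0 times in Peli1. Nedd4 has a pair of starts, with 0 cores at the upstream one and 2 at the downstream one. The core contains the GGAA core of ETS factors, and 61.3% of 32851 promoters of this length hold it, so its presence does not set these genes apart. An AP-1 site, TGANTCA on either strand, was found in 1 of the 7 windows, the downstream start of Nedd4, and in 7.81% of all promoters. A GC box, GGGCGG or its reverse complement, occurred 3 times in Cblb, 4 times in Cbl and 1 time in Rnf128, and 35.7% of all promoters hold one. The E-box CACGTG was in none of the 7 windows and in 7.15% of all. CpG dinucleotides numbered 43 in Cbl, 17 in Cblb and 26 in Rnf128, against a median of 7. The Rnf128 start lies inside the counted gene, whose annotated span begins at 139563316. A motif match is a description of letters in a window and not a binding site.

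Genes for proteins that work with CBL ligases were also expressed. In a list of 12 genes that includes Cbl and Cblb themselves, 11 lay above 1 CPM. Over all genes tested 47.4% did, the share to set beside this and the later list counts. It is not a matched share: it covers genes of every type with a count, whereas the lists keep genes with no count. The exception was Cblc, the third CBL family gene, with 20 counts in all libraries and 0.0738 CPM ± 0.0902. The adaptor Grb2 stood at 118 TPM ± 3.98, the phosphatase-like CBL partner Ubash3a at 118 ± 4.5, the signalling antagonist Spry1 at 105 ± 4.38, the SH2/SH3 adaptor Crkl at 103 ± 1.73 and the CBL-binding adaptor Sh3kbp1 (CIN85) at 72.4 ± 2.82. Ubash3a and Grb2 were higher than Cblb, each with a log2 ratio of 0.23 ± 0.08 (limma, adjusted p = 0.000912 and 0.00089, 4 of 4 libraries). Crkl and Spry1 were not told apart from Cblb, with log2 ratios of 0.03 ± 0.05 (adjusted p = 0.361) and 0.06 ± 0.07 (adjusted p = 0.164). These ratios also rest on length: in CPM Ubash3a fell to -0.69, Grb2 to -0.88, Crkl to -0.68 and Spry1 to -1.06 relative to Cblb. Sh3kbp1, at a log2 ratio of -0.47 ± 0.04 in TPM (adjusted p = 4.25e-06), was at 0.20 in CPM. With the later exon lengths Ubash3a stood at -0.79 and Sh3kbp1 at 0.25. Grb2, Crkl and Spry1 were then above Cblb, at 0.96 (adjusted p = 5.37e-07), 0.37 (1.97e-05) and 0.78 (1.12e-06, limma).

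Cblb served as the first of 3 reference genes. Relative to it, 1 of the other 8 genes was higher in TPM and 7 were lower (limma, two-sided, adjusted over 23364 genes), where 8.71% of all genes were called higher and 90.0% lower. The members' split was close to that of all genes. With the later exon lengths 2 members, Ndfip1 and Cbl, were higher than Cblb.

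**Figure D2:**
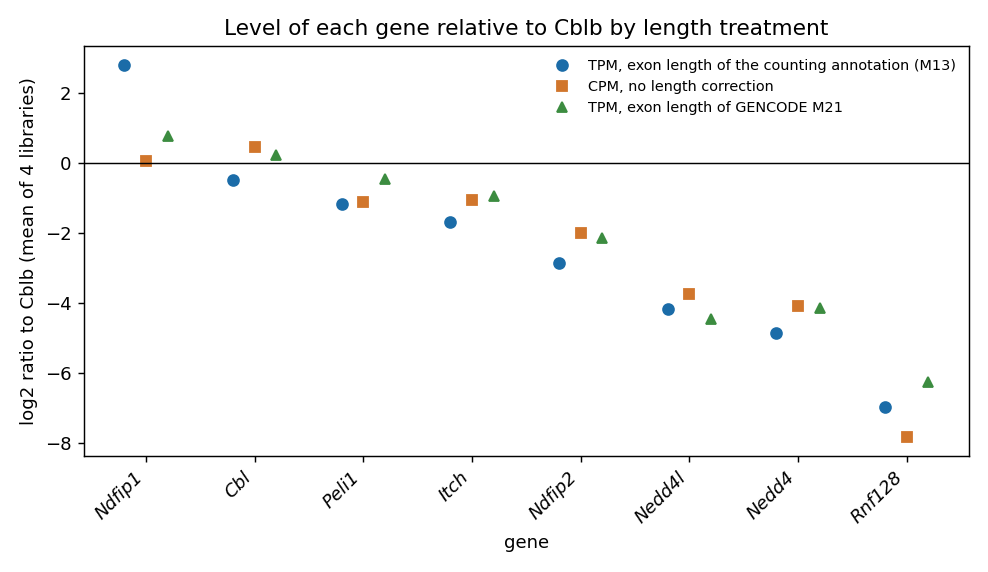
Mean log2 ratio of each of the other 8 genes to Cblb over 4 libraries, by length treatment: TPM with the lengths of the counting annotation (circles), CPM without length correction (squares) and TPM with the later lengths (triangles); no error bars are drawn. Ndfip1 moves from 2.81 to 0.05 and 0.77 and Cbl crosses the line at 0, from -0.50 to 0.46 and 0.22, while the other 6 genes stay below 0.

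Of the 3 NEDD4 family members among the 9 genes, Itch was the most abundant. Itch encodes the HECT ligase whose loss in the itchy mouse gives inflammation with Th2 features, and JunB is among its known substrates. Itch (ENSMUSG00000027598.16, chromosome 2, 155133509 to 155226855, plus strand, 27 merged exons) read 31.1, 32.2, 31.2 and 30.3 TPM, a mean of 31.2 ± 0.768 (88.3 CPM ± 2.33, adjusted p = 8.79e-18 against 1 CPM, limma). Its libraries differed little, with a coefficient of variation of 2.64%, the lowest of the 9 genes.

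Nedd4, the founding ligase of the family, and Nedd4l, its close paralog best known for ion channel turnover, stood well below Itch. Nedd4 (ENSMUSG00000032216.14, chromosome 9, 72662346 to 72749852, plus strand, 30 merged exons) read 3.28, 2.84, 3.81 and 3.52 TPM, a mean of 3.36 ± 0.411 (10.7 CPM ± 1.25, adjusted p = 6.7e-12, limma). Nedd4l (ENSMUSG00000024589.15, chromosome 18, 64887756 to 65217826, plus strand, 32 merged exons) read 5.52, 4.99, 5.78 and 5.62 TPM, a mean of 5.47 ± 0.343 (13.8 CPM ± 0.805, adjusted p = 1.39e-13). Replicate 2 was lowest and replicate 3 highest for both genes, and no value of either came near a value of Itch.

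Nedd4 was 9.1-fold lower than Itch, a log2 ratio of -3.19 ± 0.20 (limma, adjusted p = 3.96e-07). Nedd4l was 5.63-fold lower, at -2.49 ± 0.12 (adjusted p = 1.93e-07). Both held in 4 of 4 libraries. Of the summed TPM of these 3 ligases, Itch made up 77.9% ± 1.78, Nedd4l 13.7% ± 0.826 and Nedd4 8.39% ± 0.98. With the later exon lengths the shares were 83.8% ± 1.54, 7.18% ± 0.464 and 9.02% ± 1.09, so Itch still led and the other pair changed places. The order of Nedd4l over Nedd4 (log2 ratio 0.69 ± 0.09, not tested) depends on length. The exon length of Nedd4l was 8626 bases in the annotation used for counting and 17659 in the later one, with which the log2 ratio of Nedd4l over Itch was -3.50 (limma, adjusted p = 2.49e-07). Here too the reads of the added bases were not counted, so this divisor understates Nedd4l. Nedd4 has stretches of up to 129 bases in common, at 95% identity or more, with 2 other annotated genes.

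The whole family of 9 HECT ligases with these domains had 8 genes above 1 CPM, and Hecw1 had no count. The next after Itch were Wwp2 at 28.7 TPM ± 0.443, Smurf2 at 24.2 ± 0.798, Wwp1 at 22.7 ± 0.297 and Smurf1 at 18.4 ± 0.759. Wwp1 and Wwp2 are the closest relatives of Itch, and the Smurf proteins are known for regulating TGF-beta signalling. All 7 relatives with a count were lower than Itch. The smallest gap was to Wwp2, a log2 ratio of -0.12 ± 0.03 (adjusted p = 0.00542), followed by Smurf2 at -0.37 ± 0.08 (8.83e-05), Wwp1 at -0.46 ± 0.04 (8.7e-06) and Smurf1 at -0.76 ± 0.07 (1.91e-06, limma). In CPM those 4 ratios kept their direction, at -0.25 for Wwp2 and at -1.02, -1.05 and -1.38 for Smurf2, Wwp1 and Smurf1. The later exon lengths returned the same 4 values as the main ones, so that alternative could not test their direction.

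Relative to Itch, 4 of the other 8 members were higher in TPM and 4 were lower, where 23.3% of all genes were called higher and 74.7% lower. The 4 higher were Ndfip1, Cblb, Cbl and Peli1. Cbl was above Itch by 1.18 ± 0.06 on the log2 scale (limma, adjusted p = 6.62e-08) and Cblb by 1.68 ± 0.06 (1.36e-08), each in 4 of 4 libraries.

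Ndfip1 and Ndfip2 encode small membrane proteins with PY motifs that bind the WW domains of NEDD4 family ligases, recruit them to endomembranes and relieve their autoinhibition. Ndfip1 (ENSMUSG00000024425.3, chromosome 18, 38418975 to 38464399, plus strand, 8 merged exons) read 753, 725, 699 and 653 TPM, a mean of 708 ± 42.7. Ndfip2 (ENSMUSG00000053253.16, chromosome 14, 105258573 to 105309298, plus strand, 5 merged exons) read 14.2, 14.3, 13.2 and 13.1 TPM, a mean of 13.7 ± 0.648. For both genes replicates 1 and 2 were above replicates 3 and 4, and the ranges of the pair lay far apart. Ndfip1 was at the 99.2 percentile of all genes tested in TPM and Ndfip2 at the 65.9 percentile. In CPM, without length correction, these were the 95 and 78.2 percentiles.

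Ndfip2 was 51.3-fold lower than Ndfip1, a log2 ratio of -5.68 ± 0.04 (limma, adjusted p = 4.53e-11, 4 of 4 libraries), and Ndfip1 held 98.1% ± 0.0548 of their summed TPM, or 88.4% ± 0.303 with the later exon lengths. In CPM the pair stood at 192 ± 12.3 (adjusted p = 2.15e-17 against 1 CPM) and 46.1 ± 2.44 (adjusted p = 2.37e-16). The size of the gap rests on length, because Ndfip1 was counted over 930 exon bases and Ndfip2 over 11553. The later annotation gives Ndfip1 6331 exon bases, and with that divisor the log2 ratio of Ndfip2 over Ndfip1 was -2.92 (adjusted p = 2.29e-09). Reads in the bases added by the later annotation are not in the deposited counts, so this divisor understates the level of Ndfip1. Of the exon bases of Ndfip2, 4.79% overlap the antisense gene Gm16259, and the counting used strand.

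All other 8 members were lower than Ndfip1 in TPM and 0 were higher, where 99.1% of all genes were called lower and 0.633% higher. Itch, a ligase that Ndfip1 is known to activate, was 22.6-fold lower, at a log2 ratio of -4.50 ± 0.07 (limma, adjusted p = 4.53e-11). Cblb was 7.02-fold lower, at -2.81 ± 0.10 (adjusted p = 1.51e-10), and Cbl 9.94-fold lower, at -3.31 ± 0.13 (1.29e-10). Without length correction Ndfip1 was above Itch by a log2 ratio of 1.12 (limma, adjusted p = 1.38e-12). Cbl was then above Ndfip1 by 0.41 (adjusted p = 7.07e-08), and Ndfip1 and Cblb were not told apart, at 0.05 (adjusted p = 0.301). With the later exon lengths Ndfip1 was still above Cblb by 0.77 (adjusted p = 3.11e-06), above Itch by 1.73, and above Cbl, whose log2 ratio was -0.55 (2.06e-05).

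Other adaptors and membrane partners of NEDD4 family ligases formed a list of 9 with the Ndfip genes, of which 8 lay above 1 CPM. Arrdc4, an arrestin-related adaptor, was below at 0.52 CPM ± 0.132. The lysosomal membrane protein gene Laptm5, which lowers surface T cell receptor, reached 549.6 TPM ± 17.3. The arrestin-like genes Arrdc1, Txnip and Arrdc2 stood at 59.8 ± 2.03, 58.7 ± 1.42 and 14.2 ± 0.463 TPM. All 8 partners were lower than Ndfip1 in TPM, Laptm5 by the least, with a log2 ratio of -0.36 ± 0.07 (limma, adjusted p = 0.000216). For Laptm5 the direction turned in CPM, to 1.66, and with the later exon lengths, to 2.40.

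Peli1 encodes a RING-like ligase of the Pellino family that restrains T cell activation through c-Rel. Peli1 (ENSMUSG00000020134.13, chromosome 11, 21091291 to 21150323, plus strand, 7 merged exons) read 45.6, 43.2, 45.6 and 43.5 TPM, a mean of 44.4 ± 1.3 (84.9 CPM ± 2.34, adjusted p = 1.01e-17 against 1 CPM, limma). Replicates 1 and 3 were slightly above replicates 2 and 4. It was 1.42-fold above Itch, a log2 ratio of 0.51 ± 0.06 (adjusted p = 4.06e-06), and 2.26-fold below Cblb, at -1.18 ± 0.06 (adjusted p = 1.07e-07), each in 4 of 4 libraries. With the later exon lengths the ratio to Cblb was -0.45 (adjusted p = 1.42e-05). Without length correction the ratio over Itch was -0.06 (adjusted p = 0.104). Of the 3 Pellino genes, Peli3 was also above 1 CPM at 1.72 ± 0.328, and Peli2 was below at 0.368 ± 0.131.

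Rnf128 encodes GRAIL, a transmembrane RING ligase first described as a gene of anergic T cells. It was the one member not called above 1 CPM. Rnf128 (ENSMUSG00000031438.11, chromosome X, 139563316 to 139673145, plus strand, 9 merged exons) had 33, 22, 85 and 69 counts, or 0.58, 0.488, 0.665 and 1.29 CPM (0.756 ± 0.365, SD, n = 4). The exact Poisson 95% intervals, which cover counting error only, ran from 0.399 to 0.814, 0.306 to 0.738, 0.531 to 0.823 and 1.01 to 1.64 CPM. Replicate 4 lay above the other 3, whose intervals overlap each other and not its own. The log2 difference from 1 CPM was -0.45 with an SE of 0.25 and did not pass (limma, adjusted p = 0.116 for below and 1 for above). Without replicate 4 the log2 difference was -0.71 and passed as below 1 CPM (adjusted p = 0.0305).

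In TPM Rnf128 averaged 0.75 ± 0.361, at the 42.6 percentile of the genes tested. It was 126-fold lower than Cblb (log2 ratio -6.97 ± 0.58, adjusted p = 7.83e-07) and 39.1-fold lower than Itch (-5.29 ± 0.58, adjusted p = 2.87e-06, limma), in 4 of 4 libraries. These folds are on the log2(TPM + 0.1) scale, which understates the gap of a gene this low. In CPM the log2 ratios were -7.84 to Cblb and -6.77 to Itch, and with the later exon lengths the ratio to Cblb was -6.26. Summed B cell markers ranged from 1.72 to 3.5 CPM and were lowest in replicate 4, summed myeloid markers from 2.44 to 3.58 and summed NK cell markers from 1.79 to 2.64 CPM. Summed epithelial and stromal markers, which include Pecam1 at a mean of 26.9 CPM, ranged from 27.4 to 31 CPM. The sum for CD8 T cell markers ran from 8.86 to 10.7 CPM and was highest in replicate 4. Those for platelet and erythroid markers ran from 0.443 to 1.63 and 0 to 0.0527 CPM. The part of these cell types in the level of Rnf128 was not tested.

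The family of protease-associated transmembrane RING ligases to which GRAIL belongs had 7 of 11 genes above 1 CPM. Rnf133, Rnf148 and Znrf4 had no count, and Rnf128 passed neither test. Rnf167 stood at 35.7 TPM ± 2.73, Rnf149 at 27.5 ± 2.04, Rnf130 at 20.5 ± 3.14 and Rnf13 at 11.7 ± 0.771. Znrf3 and Rnf43, ligases that remove Wnt receptors from the surface, stood at 8.99 ± 0.534 and 3.99 ± 0.815 TPM.

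**Figure D3:**
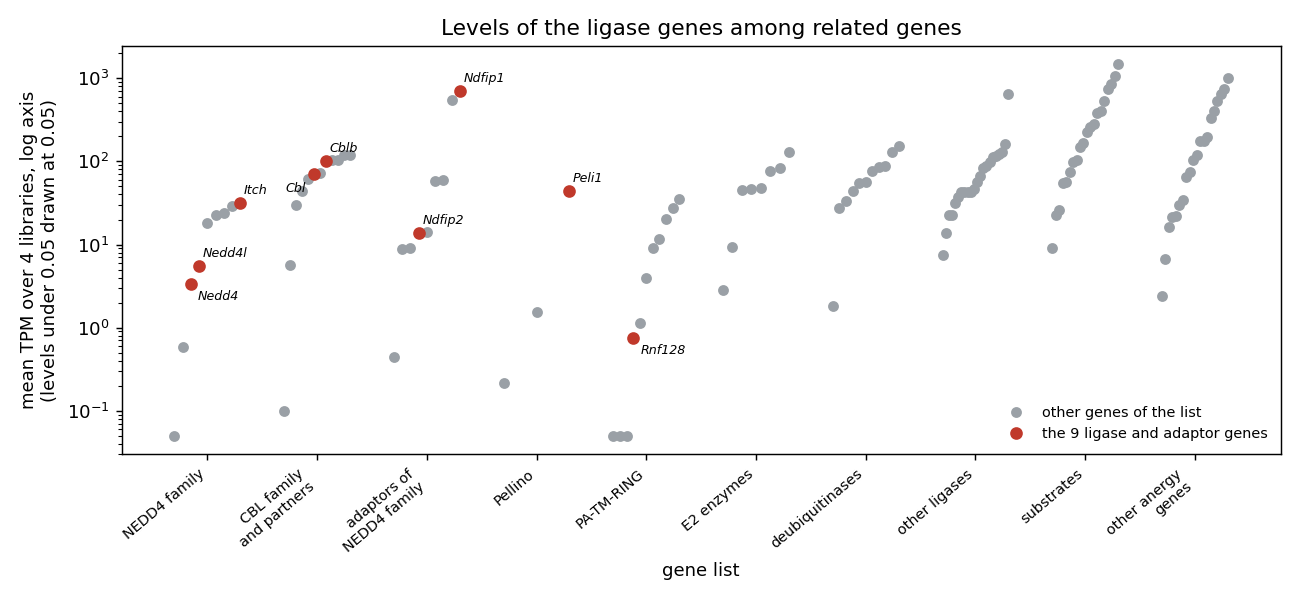
Mean TPM over 4 libraries, on a log axis, of every gene in 10 lists, each list sorted by level; the 9 ligase and adaptor genes are red, other genes grey, and levels under 0.05 TPM are drawn at 0.05. Itch and Ndfip1 stand at the top of their lists at 31.2 and 708 TPM, Peli1 stands above the other Pellino genes at 44.4, and Rnf128 stands among the lowest of its family with a count at 0.75.

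The 9 genes varied little between the replicates apart from Rnf128. All 9 passed the expression filter, and none was called more variable than the trend of genes of like abundance, where 0.422% of 13279 genes were called (edgeR goodness-of-fit test, adjusted p below 0.05). At an unadjusted p below 0.05 the count was also 0 of 9, and DESeq2 marked 0 of them as dispersion outliers. The coefficient of variation of CPM had a median of 5.31%. It was 48.2% for Rnf128, where counting alone gives 16%, and 11.6% for Nedd4, where counting gives 4%. For Rnf128 the goodness-of-fit p was 0.0637, adjusted 0.925. For Cbl, Cblb and Ndfip1 the spread was 4.06%, 3.95% and 6.4%, against counting errors of 0.804%, 0.95% and 0.929%.

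**Figure D4:**
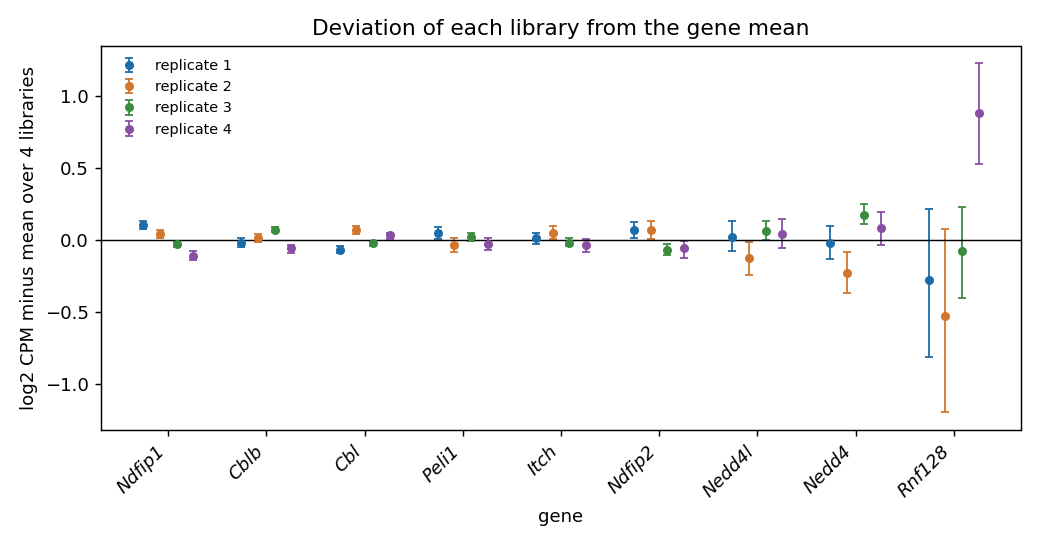
Log2 CPM of each gene in each replicate minus the gene's mean over 4 libraries, with exact Poisson 95% intervals of the count as bars. Rnf128 in replicate 4 stands at 0.88 above its mean, while the points of the other 8 genes stay between -0.23 and 0.17.

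No replicate was high or low for all genes. Replicates 1 to 4 held the highest level of 2, 3, 3 and 1 genes and the lowest of 1, 4, 1 and 3. Nedd4 and Nedd4l were lowest in replicate 2, at deviations of -0.23 and -0.13 on the log2 CPM scale. Ndfip1 ran from 0.10 in replicate 1 to -0.11 in replicate 4.

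Genes whose levels over the 4 libraries came nearest to each member were found among 15067 other protein-coding genes by Euclidean distance in log2(TPM + 0.1). With so many genes measured, a gene at the same level is always near. The nearest were Tor4a for Cbl (distance 0.035), Eaf1 for Cblb (0.040), Ube2k for Itch (0.029), and Slc31a1 for Peli1 (0.032). Farther off were Gm10131 for Ndfip2 (0.064), Dcp1b for Nedd4l (0.072), Elob for Ndfip1 (0.113), Ccdc22 for Nedd4 (0.146) and Vwa1 for Rnf128 (0.377). Ube2k encodes an E2 enzyme and Elob the elongin B subunit of cullin ligases. Vwa1 stood at 0.671 TPM ± 0.33.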

How the data were processed

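Each of the 4 libraries had 1 file of whole-number counts, deposited as raw counts of read pairs per gene and made with featureCounts 1.4.6-p4 (both ends mapped, strand option 2, exons of GENCODE M13), per the file headers. The headers name STAR alignments, and the labels name the mm10 assembly; the STAR version and the treatment of multi-mapping reads were not given in the sources used here. Per the labels the assay was total RNA-seq, but the library protocol they link to carries polyA RNA in its name. Summed exon lengths came with the files as deposited.

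Symbols of GENCODE M21 matched 50376 of 50600 gene identifiers (99.6%). From the counts, CPM and TPM were computed with the deposited lengths. Levels were tested against 1 CPM with limma 3.58.1 on log2(CPM + 0.1) over 23365 genes with a count (an intercept, trended empirical Bayes, 1 one-sided test per direction). Ratios to Cblb, Itch and Ndfip1 were tested on log2(TPM + 0.1) within each library, two-sided, over all such genes. Variation between replicates was tested with edgeR 4.0.16 on 13279 genes (TMM factors, 0.9957 to 1.002, and goodness of fit at the trended dispersion). P-values were adjusted by Benjamini-Hochberg and called below 0.05. The tests were tried on simulated counts with the same dispersion for every gene. That setting does not cover the larger spread of low genes such as Rnf128, and the outcome is not given here. The counting precision was taken from exact Poisson 95% intervals, and a floor of 3 counts was used for genes at 0. Near copies were sought with blastn 2.17.0+ (95% identity over 50% of the shorter of the matched transcripts). Other tools were DESeq2 1.42.0, scipy 1.17.1, numpy 2.4.6, pandas 2.3.3, matplotlib 3.10.9, python 3.11.15 and R 4.3.3.

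The 9 genes, 10 gene lists and marker lists were chosen with earlier results of these data known. The text names all 9 genes, up to 6 genes per list highest in TPM (for the substrates, 2 of these are not reported here), every listed gene not called above 1 CPM among those described, and 1 nearest gene per member. Alternatives were scaling, pseudocount, threshold, filter, leaving out a replicate and, chosen after the data were seen, GENCODE M21 exon lengths and the family shares by length treatment.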

Additional observations from a re-analysis of the deposited data

Results flagged for a closer look

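Of 31 values checked over the 4 replicates, 2 had 1 library farther from its neighbour than Dixon's 95% critical value for 4 samples allows, and chance gives about 1 in 20. The log2 TPM ratio of Itch over Cblb was -1.77 in replicate 3, against -1.66, -1.65 and -1.66 in replicates 1, 2 and 4 (gap over range 0.885). Total counts were highest in replicate 3, at 127755788 (gap over range 0.857). Rnf128 in replicate 4 had a ratio of 0.779, under the critical value.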

How the results depend on the processing

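No paired analysis was possible because the labels give 1 group. Levels of the 9 genes kept their direction and call in 106 of 108 alternative values, the other 2 being Rnf128 called below the threshold, at -2.66 with a threshold of 5 CPM and -0.71 without replicate 4; members below the threshold were then 1, and 0 to 1 over the libraries left out. Ratios between members kept both in 205 of 210. In CPM, Cbl over Cblb was 0.46, Cbl over Ndfip1 0.41, Peli1 over Itch -0.06 and Ndfip1 over Cblb 0.05; with GENCODE M21 lengths, chosen after the data were seen, Cbl over Cblb was 0.22. Ratios of relatives kept both in 208 of 219. In CPM, Sh3kbp1, Ubash3a, Grb2, Crkl and Spry1 over Cblb were 0.20, -0.69, -0.88, -0.68 and -1.06, and Laptm5 over Ndfip1 1.66; with M21 lengths, Sh3kbp1 and Ubash3a over Cblb were 0.25 and -0.79, Crkl and Spry1 0.37 and 0.78, and Laptm5 over Ndfip1 2.40. Length is the one choice changed in these.

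Counts over all genes moved with the genes or lengths used. With the expression filter, 1183 genes lay below 1 CPM, 10945 lower than Cblb, 7378 lower than Itch and 13076 lower than Ndfip1. In CPM, 1126, 2883 and 1040 genes were higher than Cblb, Itch and Ndfip1, and 1 member was higher than Ndfip1; with M21 lengths 3128 and 1791 genes were higher than Cblb and Ndfip1, and 2 members higher than Cblb. Of the Pellino genes, 1 lay above 5 CPM, and the other list counts stayed within 1.5 times in all alternatives. Variable genes numbered 56, and 33 to 40 without 1 library (fewer samples tested) and 76 as DESeq2 dispersion outliers. All 63 values on the variation of members kept their call. Depth limits the lowest genes: Cblc, Peli2, Arrdc4 and Rnf128 had 20, 114, 158 and 209 counts in all; the other 8 members had at least 3151 counts each.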

Other observations

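Most listed enzymes of the ubiquitin pathway and all listed substrates lay above 1 CPM, as did 47.4% of all genes tested. All 8 E2 enzymes listed lay above 1 CPM (median 61 CPM), with Ube2g2 at 129 TPM ± 5.68, Ube2d2a at 82.9 ± 2.93 and Ube2l3, the usual partner of HECT ligases, at 76.8 ± 3.33 (SD, n = 4). Of 11 deubiquitinases, 10 lay above 1 CPM (median 151 CPM). Otub1 stood at 154 TPM ± 5.61, Usp7 at 129.98 ± 4.04, Tnfaip3 (A20) at 88.2 ± 3.78 and Usp8 at 85.8 ± 1.91. Usp18, an interferon-induced enzyme that removes ISG15, passed neither test at 1.49 CPM ± 0.813. All 20 reported substrates lay above 1 CPM (median 174 CPM), among them Junb at 1054 TPM ± 55.1, the proximal kinase genes Lck and Zap70 at 747 ± 9.17 and 527 ± 12.9, and Cd40lg at 401 ± 23.4.

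All 20 other genes associated with anergy also lay above 1 CPM (median 107 CPM). The receptor-induced transcription factor gene Nr4a1 stood at 1006 TPM ± 58.7, the adaptor gene Grap at 738 ± 21.3, Egr3 at 332 ± 21 and Ikzf1 at 402 ± 8.75. The inhibitory receptor genes Ctla4 and Pdcd1 stood at 649.96 ± 27.3 and 533 ± 13.7 TPM. Many of these genes are also known to rise on ordinary activation, and with no resting or anergic group their levels say nothing of a state. All 22 other ubiquitin ligases listed were above 1 CPM (median 86 CPM), led by Trim28 at 655 TPM ± 28.3, Stub1 at 164 ± 4.57, Rnf19a at 129.6 ± 0.694, Cul3 at 123 ± 6.23, Mdm2 at 115 ± 5.15 and Trim27 at 113 ± 2.08.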
